A study of Mus musculus with 4 samples.

Results

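Forkhead box (Fox) genes encode transcription factors that share a winged-helix DNA-binding domain, the forkhead, and are named by subclass letter and number. The members described here are the protein-coding genes whose symbol is Fox followed by a letter from a to s and a number, which gave 35 of the 26822 genes in the table, of which 17349 are protein-coding. The choice used symbols and biotype, not levels.

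RNA-seq was done on retinal endothelial cells (ECs) of C57BL/6J mice aged 6 days (P6), when the retinal vessels are still growing outward. After collagenase digestion of the retinas, viable cells positive for CD31 and negative for CD45 (CD31+/CD45-) were flow-sorted and gave 4 libraries, which form 1 control group with no treated, mutant or other-tissue samples. The study describes the libraries as independent samples, but nothing in the labels says that they came from separate animals or litters, so errors and p-values measure the spread between these samples, which may be technical. The RNA extraction text in the labels is worded for HUVECs, human ECs from the umbilical vein, so it may describe another experiment.

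Most forkhead proteins bind DNA close to the motif GTAAACA, and the subclasses differ mainly in where they are expressed and how they are controlled. In ECs, FOXO factors are kept out of the nucleus by PI3K-AKT signalling downstream of growth factor receptors and otherwise restrain growth. FOXC and FOXF factors take part in vessel development, FOXQ1 and FOXL2 belong to the transcription factors enriched in ECs of the central nervous system (CNS), and FOXM1 activates genes of mitosis in dividing cells.

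A value below is a normalised read count, scaled between libraries and rounded by the authors. The library totals lay between 14843847 and 15017241. Because longer transcripts give more reads, levels of different genes were compared as value per exonic kilobase (per kb), the union of annotated exons, with folds on values as deposited beside some of them for reference, and means are given ± SD (n = 4 libraries). A gene with a mean value of at least 10 is called detected. That is a threshold on the value and not on reads: the value 9 was held by 560 genes in library 1, against 308 at 8 and 212 at 10, and the value 6 was held by 728 to 751 genes in libraries 2 to 4, so a low value may rest on very few reads.

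EC identity and other cells were read from marker lists. All 6 EC markers were detected, with a median of 1580 per kb against 161 per kb for the 15000 detected genes with a known length. Of 5 leukocyte and microglia markers in the table, 3 were detected, and the 5 summed to 87, 21, 86 and 26 in libraries 1 to 4, with Ptprc, which encodes CD45, at 11, 1, 1 and 0. The 4 astrocyte markers, 2 of them detected, summed to 398, 40, 345 and 123, and the 6 ganglion cell markers, 4 of them detected, to 3989, 3686, 4076 and 4201, although Aqp4 of the former list and Pou4f2 of the latter were at 0 in every library. Most of the ganglion cell sum came from Rbpms, at 3430, 3331, 3425 and 3638, so that sum mainly follows 1 gene. Which cells the Rbpms reads came from was not tested. Other retinal cells were also present in the RNA: the 8 photoreceptor markers, all detected, summed to 5003, 5753, 4545 and 13403, and the 10 pericyte and smooth muscle markers, of which 9 were detected, to 2037, 573, 2243 and 3787. Library 4 held the highest value of 8 of 8 photoreceptor and 8 of 10 pericyte and smooth muscle markers. Bulk values cannot separate more cells of a type from more RNA per cell.

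The closest paralogues of the family share stretches of coding sequence, and a read could not be assigned only if it lay wholly inside such a stretch. The highest members of the F, C and O subclasses are shown with a paralogue, since the levels of these pairs are compared below. The runs identical between the partners are in capitals, 24 coding bases are given on either side, and the sequences are from GENCODE M21 transcripts on GRCm38, 5′ to 3′.
Foxf2, coding bases 391 to 479: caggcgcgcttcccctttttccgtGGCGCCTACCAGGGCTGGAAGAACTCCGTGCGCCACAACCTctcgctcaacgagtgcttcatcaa
Foxf1, coding bases 235 to 323: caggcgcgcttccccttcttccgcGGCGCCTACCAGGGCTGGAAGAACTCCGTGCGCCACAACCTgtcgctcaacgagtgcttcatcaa
Foxc1, coding bases 415 to 515: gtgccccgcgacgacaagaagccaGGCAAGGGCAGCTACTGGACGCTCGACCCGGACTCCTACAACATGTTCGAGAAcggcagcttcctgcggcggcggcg
Foxc2, coding bases 394 to 494: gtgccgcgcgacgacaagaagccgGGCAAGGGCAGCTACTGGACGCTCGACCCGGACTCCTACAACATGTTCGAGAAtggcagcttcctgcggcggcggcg
Foxo1, coding bases 547 to 632: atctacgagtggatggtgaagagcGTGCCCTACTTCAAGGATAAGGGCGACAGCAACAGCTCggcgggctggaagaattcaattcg
Foxo3, coding bases 544 to 629: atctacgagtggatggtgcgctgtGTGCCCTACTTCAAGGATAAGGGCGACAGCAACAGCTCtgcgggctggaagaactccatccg
The longest shared run was 53 bases for Foxc1 and Foxc2, 41 for Foxf2 and Foxf1 and 38 for Foxo1 and Foxo3, all shorter than the 75-base reads. Foxd1 and Foxd2 shared 47 bases, and Foxp1 and Foxp2 shared 35 bases of a CAG-rich repeat. No 75-base stretch of any of the 35 members occurred in another member. With genes outside the family, Foxp1 shared 2.03% of its distinct 75-base stretches (with Gm20696 and Gm49348) and Foxm1 1.17%.

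Of the 35 members, 25 were detected (71.4%), beside 74.8% of protein-coding genes and 56.0% of all genes. A mean value of at least 1000 was reached by 11 members (31.4%), beside 30.3% of protein-coding genes, so the family as a whole stood close to the background in both shares. Another 4 members lay between 100 and 1000 and 10 between 10 and 100. Per kb, 11 of the 25 detected members were above the median of all detected genes, and their own median was 49.2 per kb. Among the 12 members whose longest transcript has 1 exon, 7 were detected, and among the 23 with introns, 18.

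**Figure D1:**
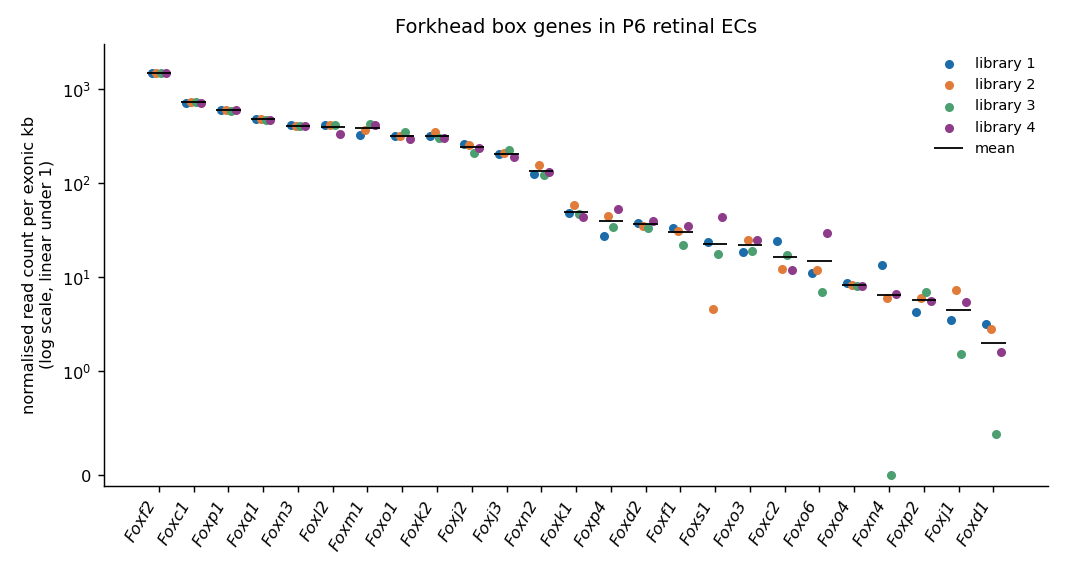
Normalised read count per exonic kilobase (log axis, linear under 1) of the detected Fox genes in each of the 4 libraries, ordered by mean, with a bar at the mean. Foxf2 stands at the top at 1477 per kb, apart from the next member Foxc1 at 716 per kb, and the points of lowly expressed members spread more than those at the top.

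The order at the top was Foxf2, Foxc1, Foxp1, Foxq1 and Foxn3, at 1477 ± 6.39, 716 ± 13.4, 589 ± 9.75, 473 ± 8.29 and 402 ± 4.60 per kb. None of these neighbours in the order overlapped. Below them Foxn3, Foxl2, Foxm1, Foxo1 and Foxk2, from 402 to 314 per kb, each overlapped with the next, and in all 17 of 24 neighbouring ranks overlapped. Only Foxf2 approached the highest genes of these cells, at the 98.5th percentile of detected genes per kb, whereas Foxc1 was at 86.1, Foxp1 at 81.2 and Foxq1 at 75.5.

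**Figure D2:**
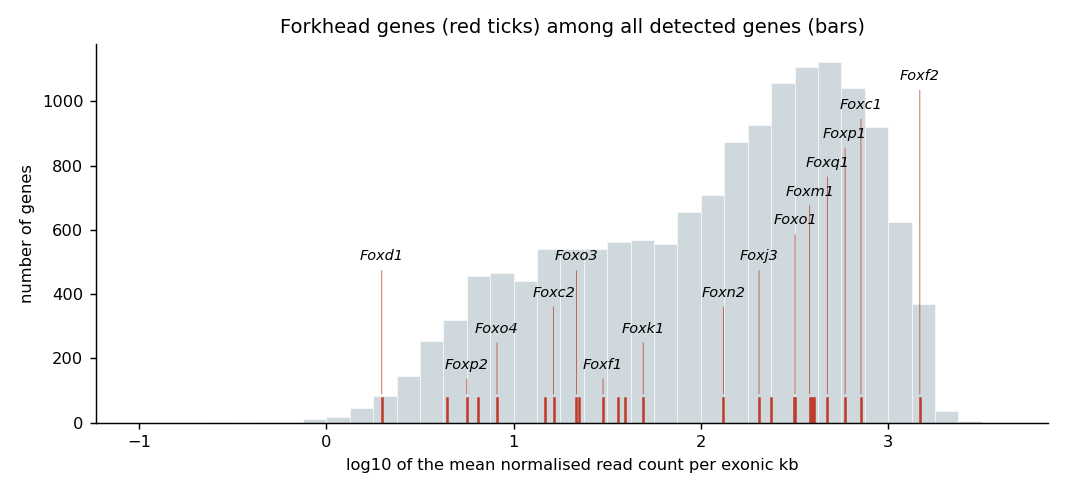
Number of detected genes by log10 of the mean value per exonic kilobase (bars), with the 25 detected Fox genes as red ticks. Foxf2 lies near the 99th percentile of 1546 per kb, and 14 of the 25 detected members lie below the median of 161 per kb.

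Foxf2 encodes a factor of brain pericytes and brain ECs that is needed for the blood-brain barrier in mice. Its values were 3509, 3497, 3474 and 3485, nearly equal in every library. Foxf1, its paralogue, acts in lung endothelium and visceral mesenchyme, and stood at 79, 74, 53 and 84. The groups did not overlap, and per kb Foxf2 was 49.3-fold higher (log2 difference 5.62 ± 0.29, adjusted p = 0.0305, exact two-sided permutation test, n = 4). With 4 values against 4 the test has 70 splits and cannot give a p below 0.0286, and Benjamini-Hochberg adjustment over the 16 pairs tested brings every pair without overlap to 0.0305. Since 89.0% of all pairs of detected genes do not overlap either, the folds carry more than the p-values. The folds have a limit too, since the scale was narrow at the top. The 99th percentile of detected genes was 1546 per kb and the maximum 2854 per kb. Whether the unknown scaling or duplicate handling narrows folds that involve Foxf2 or differences among the highest genes of the gene lists was not tested. Flipping signs within libraries could not give a p below 0.125.

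Foxc1, a regulator of vessel and anterior eye development, had values of 4175, 4188, 4282 and 4091. Foxc2, which takes part in lymphatic valve formation, had 66, 33, 47 and 32. Foxc1 was 44.8-fold higher per kb (log2 difference 5.48 ± 0.47, adjusted p = 0.0305, exact permutation test), and 96.0-fold higher on the values as deposited. It held 97.8% ± 0.767 of the summed per kb value of its subclass, as Foxf2 held 98.0% ± 0.364 of its own.

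Foxq1, whose values were 2338, 2313, 2266 and 2252, lies beside both. Foxq1, Foxf2 and Foxc1 start at chr13:31556134, chr13:31625816 and chr13:31806633, all on the plus strand, within 256.3 kb. The paralogous cluster of Foxf1, Foxc2 and Foxl1 starts at chr8:121084386, chr8:121116171 and chr8:121127940, also on the plus strand, within 46.3 kb. The lowest value of any member of the chromosome 13 cluster in any library was that of Foxq1 in library 4, 465 per kb, and no member of the chromosome 8 cluster exceeded 30.0 per kb on average. Foxl1, a factor of gut mesenchyme, reached a highest value of 1.

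The comparison inside the chromosome 13 cluster depended on length. Per kb, Foxf2 was 2.06-fold above Foxc1 (log2 difference 1.05 ± 0.03) and 3.12-fold above Foxq1, and Foxc1 was 1.51-fold above Foxq1 (adjusted p = 0.0305 each, exact permutation test). On values as deposited the first order turned, with Foxc1 1.20-fold above Foxf2, since the exons of Foxc1 cover 5.844 kb and those of Foxf2 2.363 kb. The union of exons may not match the transcripts present in these cells.

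**Figure D3:**
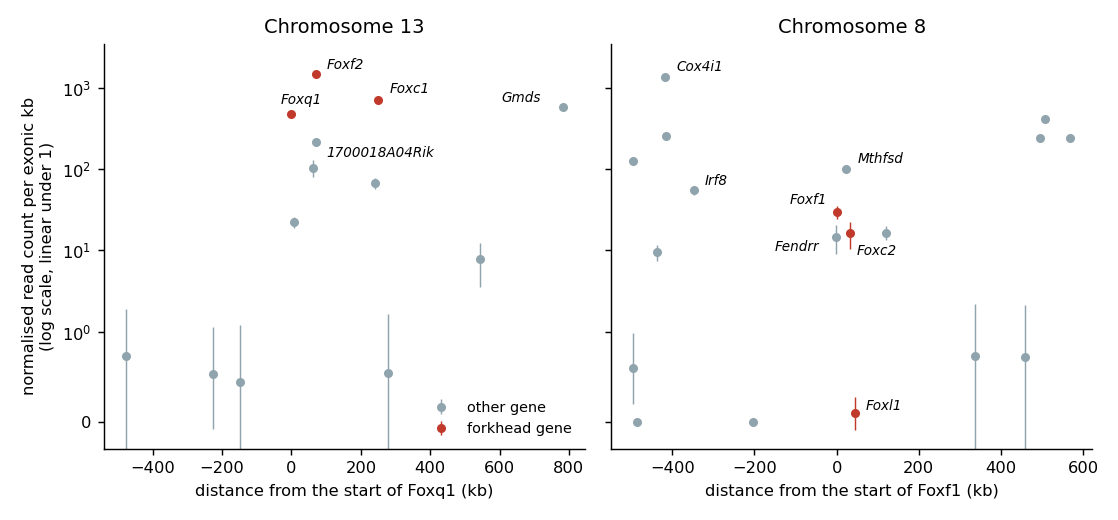
Mean value per exonic kilobase ± SD over 4 libraries (log axis, linear under 1) of genes within 500 kb of the Foxq1-Foxf2-Foxc1 cluster on chromosome 13 and of the Foxf1-Foxc2-Foxl1 cluster on chromosome 8, against distance in kb from the start of the first Fox gene. The chromosome 13 Fox genes lie between 473 and 1477 per kb, and those on chromosome 8 at or below 30.0 per kb while non-Fox coding genes around them reach 1387 per kb.

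Whether neighbouring genes follow the same split cannot be judged, since too few other coding genes lie near the chromosome 13 cluster. Within 500 kb of the chromosome 8 cluster, 8 of 9 other coding genes were detected, among them Cox4i1, a subunit of cytochrome c oxidase, at 1387 per kb, Map1lc3b, an autophagy protein, at 415 per kb, Emc8 at 258, Fbxo31 at 242, Zcchc14 at 241, Gins2 at 128, Mthfsd at 102 and the myeloid factor Irf8 at 55.2 per kb. Mthfsd lies between Foxf1 and Foxc2, so a gene at 102 per kb sits between members at 30.0 and 16.3 per kb. Around the chromosome 13 cluster the one other coding gene, Gmds, an enzyme of GDP-fucose synthesis, stood at 579 per kb. Of noncoding neighbours there, Gm11377, Gm11378, Gm11379 and Gm48885 were detected with means from 15 to 30.8. On chromosome 8 the noncoding 5033426O07Rik had a mean of 35.

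Long noncoding partners were measured next to several members. 1700018A04Rik starts 23 bases from Foxf2 on the opposite strand and had values of 681, 677, 551 and 641, or 214 per kb. Fendrr, which lies 1275 bases from Foxf1 in the opposite direction, had 7, 20, 20 and 17. The highly expressed member and the lowly expressed member thus each had a divergent partner below its own level. The setting of strand in the counting is not given in the sources used here, so values of overlapping opposite-strand genes are uncertain.

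The promoters of Foxf2 and Foxc1 are shown because they start the pair of members with the highest levels per kb. They are RefSeq sequences of GRCm38.p6, from 250 bases before to 50 bases after the start, and capitals mark GGGCGG (the SP/KLF motif), CCAAT and CCGGAA (ETS) on either strand.
Foxf2, chr13:31625566-31625865, plus strand: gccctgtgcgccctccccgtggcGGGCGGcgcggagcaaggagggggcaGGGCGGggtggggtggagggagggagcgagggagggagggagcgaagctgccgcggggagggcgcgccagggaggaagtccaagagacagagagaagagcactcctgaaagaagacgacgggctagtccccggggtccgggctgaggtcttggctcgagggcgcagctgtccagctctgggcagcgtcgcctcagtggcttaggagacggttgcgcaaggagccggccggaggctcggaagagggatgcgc
Foxc1, chr13:31806396-31806695, plus strand: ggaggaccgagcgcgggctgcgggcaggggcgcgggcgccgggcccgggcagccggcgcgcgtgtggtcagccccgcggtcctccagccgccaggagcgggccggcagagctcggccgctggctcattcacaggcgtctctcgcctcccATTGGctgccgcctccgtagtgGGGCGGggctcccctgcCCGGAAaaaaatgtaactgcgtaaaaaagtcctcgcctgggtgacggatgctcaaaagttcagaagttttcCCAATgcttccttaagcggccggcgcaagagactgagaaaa
Foxf2 held GGGCGG at 2 places, and Foxc1 held it at 1, beside CCAAT at 2 and CCGGAA at 1. Of all 32851 promoters in the table, 35.7% held GGGCGG, 37.4% CCAAT and 14.9% CCGGAA, so such matches are common. Promoters were found for 21 of the 35 members, 24 sequences in all, with a median GC content of 66.5% against 52.7% over all promoters and a median of 26 CG dinucleotides against 7. GGGCGG occurred in 17 of the 21, of which 13 were detected members. The TEAD motif GGAATG, searched because the study concerns TEAD cofactors, occurred in 2 members, Foxo3 and Foxp1, beside 14.7% of all promoters. The TCF/LEF motif CTTTGA occurred in 1 member, beside 16%, and the forkhead motif GTAAACA in Foxa1 alone, beside 3.65%. The shares over all promoters count single sequences, whereas a member was counted if any of its promoters matched. A match is a string of letters and not a bound site.

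Foxo1, the main FOXO factor of ECs, had values of 2736, 2730, 3021 and 2553, or 319 ± 22.3 per kb. Foxo3, which shares many targets with it, had 137, 181, 140 and 183. Foxo4 had 27, 26, 25 and 25, and Foxo6, which is best known from neurons, 29, 31, 18 and 76. Foxo1 was the highest of its subclass in every library and held 87.7% ± 3.63 of the subclass sum per kb, from 82.7% to 91.2%.

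Per kb, Foxo1 exceeded Foxo3 by 14.7-fold (log2 difference 3.88 ± 0.30), Foxo4 by 37.6-fold (5.23 ± 0.12) and Foxo6 by 24.2-fold (4.59 ± 0.94), and Foxo3 exceeded Foxo4 by 2.55-fold (adjusted p = 0.0305 each, exact permutation test). On values as deposited these folds from Foxo1 to Foxo4 and to Foxo6 were 103 and 80.1, and that from Foxo3 to Foxo4 was 5.98. Foxo6 was highest in library 4, where the photoreceptor markers also summed highest, and its mean value was 38.5 with library 4 and 26 without it. The match is not particular to photoreceptors. Retinal progenitor and Mueller glia markers summed to 2180, 1901, 1674 and 3435, and amacrine and horizontal markers to 338, 399, 230 and 743. The part of other retinal cells in the level of Foxo6 was not tested.

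The listed genes of the FOXO pathway around these factors were detected, at widely differing levels. All 20 listed genes upstream of FOXO (receptors, PI3K, AKT and modifying enzymes) passed the threshold, 16 at a mean of 1000 or more, with a median of 242 per kb. The highest were Tek, the angiopoietin receptor, at 1697 per kb, Akt1, the kinase that phosphorylates FOXO, at 1647 and Sgk1, a related kinase, at 956. All 20 listed FOXO targets passed as well, 11 at a mean of 1000 or more, with a median of 268 per kb. Of all protein-coding genes, 74.8% passed the threshold and 30.3% had a mean of at least 1000. Both lists were chosen, so their counts describe them and do not measure pathway activity. Cat, which encodes catalase, led at 1430 per kb, followed by Txnip, an inhibitor of thioredoxin and glucose uptake, at 891 and Sesn1, a stress-induced regulator of growth signalling, at 877. Above the median per kb of all detected genes stood 15 of the 20 targets. The lowest were Fbxo32 at 29.0, Irs2 at 10.9 and Bcl6 at 7.02 per kb.

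Of 17 FOXO targets with a promoter in the table, 5 held GTAAACA on either strand, beside 4.05% of 27025 genes. The matches are shown in capitals with the flanking bases of the RefSeq plus-strand promoters, where position +1 is the first transcribed base.
Bcl2l11, from base -227, chromosome 2: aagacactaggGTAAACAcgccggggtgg
Btg1, from base -204, chromosome 10, motif on the other strand: gggggtttattTGTTTACaagcagattac
Mxi1, from base -231, chromosome 19: cgcgcggagaaGTAAACAaaccgcgcgcg
Sesn1, from base +23, chromosome 10, motif on the other strand: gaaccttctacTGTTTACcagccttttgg
Txnip, from base -121, chromosome 3: ttggaggcctgGTAAACAagggccaagta
These targets spanned a wide range. Sesn1 and Txnip were at 877 and 891 per kb, Btg1, an antiproliferative factor, at 381, Mxi1, a MYC antagonist, at 225 and Bcl2l11, a proapoptotic BCL2 relative, at 173 per kb. The list was drawn from known targets, so the count of motifs is a description of it.

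Foxm1, the mitotic regulator, had values of 1513, 1713, 1942 and 1923, lowest in library 1, with a mean of 1773 ± 202 or 381 ± 43.4 per kb. All 18 listed FOXM1 targets and partners, genes of mitosis and of the MuvB complex, passed the threshold, with a median of 400 per kb. A mean of 1000 or more was reached by 14 of them. The shares of all protein-coding genes were 74.8% for the threshold and 30.3% for such a mean. Their sums were 26626, 28633, 33289 and 29174, also lowest in library 1, and 13 of the 18 were highest in library 3. Library 3 held the highest value of 27.1% of all detected genes.

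Cenpa, the centromeric histone, stood at 1178 per kb, Cdc20, an activator of the anaphase-promoting complex, at 1168 and Cks1b, a cyclin-dependent kinase subunit, at 896. Top2a, the DNA topoisomerase of dividing cells, had values of 3790, 4289, 5376 and 4030 and varied beyond the trend of genes of its level (robust z 5.33). No FOXM1 list gene of the 15 with a promoter held GTAAACA. Foxm1 starts 55 bases from Rhno1, a divergent gene at 394 per kb whose values were 645, 935, 916 and 772.

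**Figure D4:**
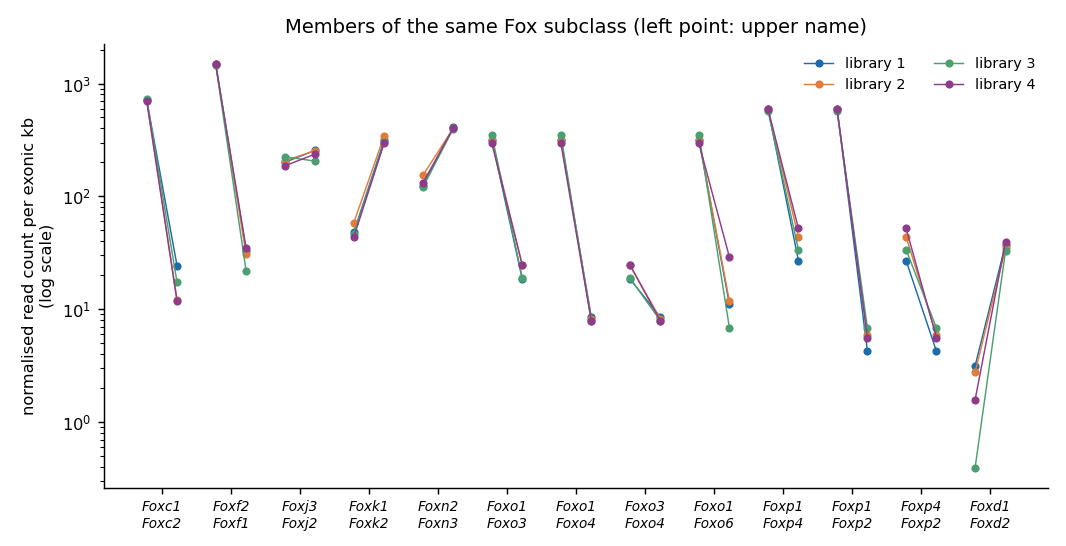
Value per exonic kilobase (log axis) of both members of 13 pairs of the same subclass, with the upper name at the left point and a line for each of the 4 libraries. Lines run in 1 direction in every pair except Foxj3 and Foxj2, where library 3 (225 against 205 per kb) runs the other way and the values overlap.

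In the P subclass Foxp1, a repressor expressed in many tissues including endothelium, had values of 4687, 4634, 4512 and 4655. Foxp4 had 109, 177, 136 and 210, highest in library 4. Foxp2, known from neurons, had 41, 57, 66 and 54. Foxp1 exceeded Foxp4 by 15.4-fold per kb (log2 difference 3.95 ± 0.41; 30.0-fold as deposited) and Foxp2 by 104-fold (6.70 ± 0.30), and Foxp4 exceeded Foxp2 by 6.76-fold (2.82-fold as deposited; adjusted p = 0.0305 each, exact permutation test). Foxp1 held 92.9% ± 1.71 of the subclass sum. Gm20696 overlaps Foxp1 on the same strand with a mean of 188, and reads could be split between them.

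Foxp3, the factor of regulatory T cells, reached a highest value of 4, beside the leukocyte marker Ptprc at 11 or less. The 10 listed partners of FOXP repression in the table, subunits of the NuRD and CtBP corepressors, were all detected at a median of 634 per kb. Beside them, 74.8% of all protein-coding genes were detected. Mta2 led at 1576 per kb, followed by Ctbp1 at 1037 and Gatad2a at 882.

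The K, N and J subclasses hold broadly expressed members, and N and J also hold members known from few tissues. Foxk2 (1577, 1731, 1523 and 1494) was 6.41-fold above Foxk1 (365, 443, 354 and 330) per kb and 4.25-fold as deposited (log2 difference of Foxk1 over Foxk2 per kb -2.68 ± 0.09). FOXK factors act in nutrient-dependent transcription. Both genes were highest in library 2, and Foxk2 held 86.5% ± 0.730 of their sum per kb.

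Foxn3, a repressor linked to cell cycle checkpoints, had values of 3297, 3235, 3209 and 3255. Foxn2 had 630, 779, 610 and 666. Foxn3 was 3.06-fold higher per kb and 4.86-fold as deposited (adjusted p = 0.0305 for the K and the N pair, exact permutation test). Foxn4, which directs retinal progenitors towards amacrine and horizontal cells, had 40, 18, 0 and 20, and Foxn1, the factor of thymic epithelium, reached at most 3. The 6 amacrine and horizontal markers in the table, 4 of them detected, summed to 338, 399, 230 and 743, most of it from Prox1 at 271, 294, 154 and 522, which lymphatic ECs also express. Their part in the level of Foxn4 was not tested.

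Foxj2 (1351, 1344, 1085 and 1252) and Foxj3 (1144, 1179, 1282 and 1064) were the one pair whose values per kb overlapped. Foxj2 stood at 238 ± 23.4 and Foxj3 at 204 ± 15.8 per kb, a log2 difference of Foxj3 over Foxj2 of -0.22 ± 0.23 (p = 0.0857, exact permutation test). Its sign turned when the longest transcript was used as length (0.04), so no order can be given. Foxj1, the factor of motile cilia, had 9, 19, 4 and 14.

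Foxl2, best known as the factor of ovarian granulosa cells and eyelid development, had values of 1341, 1346, 1327 and 1077, or 391 ± 40.2 per kb. Libraries 1 to 3 were nearly equal and library 4 stood below them, farther from the rest than Dixon's criterion allows, as in 6.62% of detected genes. Foxl2os, which overlaps it by 12 bases on the opposite strand, had 1023, 1177, 970 and 1095, at 345 per kb and without the low value in library 4. Reads from the overlap cannot be assigned without strand.

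Foxl2, Foxq1 and Foxf2 were set beside other transcription factors and Wnt pathway genes of CNS ECs. All 12 of these were detected at a median of 953 per kb, led by Sox18 at 1699, Sox7 at 1424 and Ctnnb1, which encodes beta-catenin, at 1383. Above the median per kb of all detected genes stood 9 of the 12. Ppard at 147, Axin2 at 84.0 and Zfp551 at 30.0 per kb were below it. All 12 genes of a barrier-related list, which includes Plvap, the diaphragm protein of permeable vessels, had a mean of at least 1000, at a median of 1196 per kb, led by the lipid transporter gene Mfsd2a at 1838, the tight junction gene Cldn5 at 1834 and Plvap itself at 1578. Of 13 listed FOXC targets and lymphatic genes, all were detected at a median of 373 per kb. They were led by the connexin genes Gja1 at 1670 and Gja4 at 1350 and the Notch ligand gene Dll4 at 996. The median per kb of all detected genes was exceeded by 10 of the 13. Itgb3 at 68.7, the lymphatic gene Prox1 at 37.0 and Hey2 at 15.9 per kb were below it.

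The remaining detected members were low. Foxd2 had 97, 90, 85 and 102, while its divergent partner Foxd2os, 383 bases away, was higher at 277, 261, 347 and 284 (36.1 against 100.5 per kb). Foxd1, a factor of temporal retina and kidney stroma, had 16, 14, 2 and 8, a mean of exactly 10. Foxd2 exceeded Foxd1 by 20.2-fold per kb and 10.4-fold as deposited (log2 difference of Foxd1 over Foxd2 -4.34 ± 1.08, adjusted p = 0.0305, exact permutation test).

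Foxs1, expressed in perivascular cells, had 31, 6, 23 and 57, with an SD of 72.6% of its mean. Its robust z of 1.95 was below the call of 3. Foxo6 and Foxn4, members of similarly low value, had an SD of 66.6% and 83.9% of their means. Like Foxs1, the pericyte and smooth muscle sums of 2037, 573, 2243 and 3787 were lowest in library 2 and highest in library 4. Without library 4 the mean of Foxs1 was 20, against 29.2 with it. The part of mural cells in its level was not tested.

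The 10 members under the threshold are mostly known from other tissues. Foxa3, an endodermal factor, reached a highest value of 8, Foxe1, a thyroid factor, 4, Foxd3 of the neural crest 3 and Foxa1 2. Foxi3 and Foxd4 were at 0 in every library. Foxp3 shared 12.5% of its 75-base stretches with Flicr, so its count may be incomplete.

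Variation between libraries was read as the SD of log2(value + 1) against the trend over genes of the same level. None of the 25 detected members exceeded the trend at a robust z above 3, beside 4.01% of detected genes (602 of 15012). In the direction of single libraries, 9 members were highest in library 1 (36.0%, beside 20.3% of genes), 5 in library 2 (20.2%), 5 in library 3 (27.1%) and 6 in library 4 (30.6%). The lowest value was in library 3 for 11 members (44.0%, beside 22.3% of genes), in library 4 for 8 (33.0%), in library 1 for 4 (21%) and in library 2 for 1 (21.4%), and Foxo4 tied between libraries 3 and 4.

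**Figure D5:**
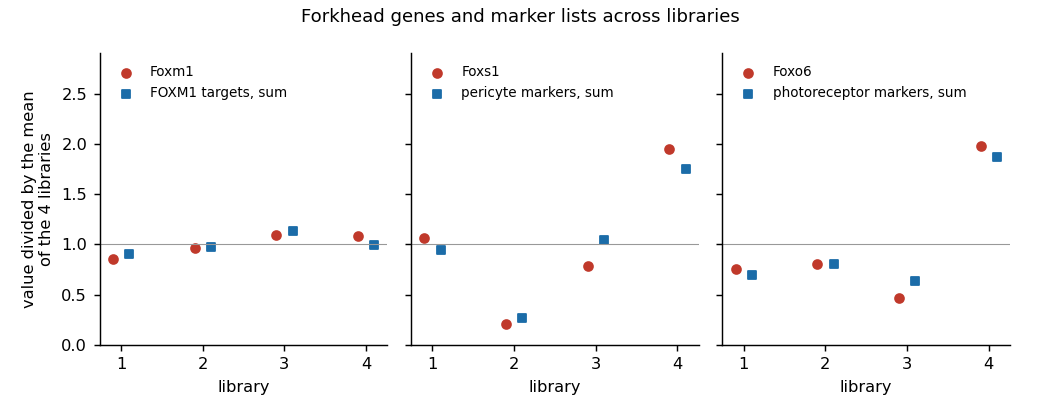
Values of Foxm1, Foxs1 and Foxo6 in libraries 1 to 4 beside the summed values of a gene list, each divided by its mean over the 4 libraries, in pairings chosen after the values were seen. Foxs1 and the pericyte and smooth muscle sum are both lowest in library 2 and highest in library 4, and Foxo6 and the photoreceptor sum are both lowest in library 3 and highest in library 4. The sums of retinal progenitor and Mueller glia markers and of amacrine and horizontal markers, not plotted, are lowest and highest in the same libraries as Foxo6.

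The spread of the highest members was narrow. Foxf2 had an SD of 15.1, against 59.1 for the square root of its mean, and Foxn3 37.1 against 57.0 and Foxq1 40.1 against 47.9, whereas Foxc1 (78.2 against 64.7) and Foxp1 (76.5 against 68.0) were above. Of members with a mean of at least 100, 3 of 15 (20%) had a variance below the mean, beside 13.8% of such genes. Over the 10808 detected genes with a mean of at least 100 the median ratio of variance to mean fell from 9.28 below 50 per kb to 4.18 between 400 and 800 per kb and 1.11 from 1200 per kb upward, where 45.7% of 611 genes had a variance below the mean. For Foxf2 the SD was below that of independent reads counted at 1 each. A variance from 4 values can fall below the mean for such reads as well. The shares above therefore do not show that genes spread less than counting would give. How the values were scaled or duplicates handled is not given in the sources used here.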

How the data were processed

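Poly(A) RNA of 4 libraries of sorted P6 retinal ECs was sequenced as 75-base single-end stranded reads per the labels. The deposited table holds 1 score per gene and library, a read count that the authors normalised and rounded to whole numbers. Its normalisation, aligner, genome build, annotation and treatment of duplicate reads are not given in the sources used here. The submitters' processing notes name FastQC. No count model was fitted, and read depth per value is unknown, so counting intervals were not computed.

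The table had 26834 rows. Repeated symbols were reduced to their highest row, which left 26822 genes. The positions of 35 of 35 members matched GENCODE M21 on GRCm38, whose basic transcripts gave exonic lengths. Pairs of genes were tested by exact permutation, two-sided, of the mean of log2((value + 1) / kb), 4 values against 4, with Benjamini-Hochberg adjustment over 16 pairs and a threshold of 0.05. A pseudocount of 1 understates folds of low genes. Foxl2 and Foxl1 were not tested because Foxl1 was not detected. Variation was the SD of log2(value + 1) against a lowess trend (fraction 0.2, 3 robust iterations), called at a robust z above 3. The call was tested on data simulated with normal noise around that trend. The excess of genes at some low values was not simulated, so the simulation is no check on it. Detected members were named with all values, members under 10 with their highest value (1 of them is not reported here), and the 3 highest genes per kb of each list. Top2a, Rhno1, Ptprc, Rbpms and the lowest genes of some lists were chosen after values were seen. So were the FOXO targets with a motif and the pairs of a member with a list. Members and lists were chosen with earlier results of these data known. Python 3.11.15, numpy 2.4.6, pandas 2.3.3 and statsmodels 0.14.6 were used. Alternatives were length, pseudocount, minimum value, rescaling and leaving out each library.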

Additional observations from a re-analysis of the deposited data

Results flagged for a closer look

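Foxl2 had a value of 1077 in library 4, far from its other 3 values of 1327, 1341 and 1346 by Dixon's criterion for 4 samples. By chance about 1 in 20 genes would be marked in this way, 6.62% of the 15012 detected genes were, and Foxl2 was 1 of 25 detected members (4.00%).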

How the results depend on the processing

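Of the 16 pairs, 15 did not overlap under every alternative length, pseudocount (0.1 and 5) and rescaling, and 15 to 16 when a library was left out. Over the values as deposited Foxf2 over Foxc1 turned from 1.05 to -0.26 on the log2 scale, by construction of the length division. With the longest transcript as length Foxj3 over Foxj2 turned from -0.22 to 0.04, and without library 3 that pair no longer overlapped (-0.33). No fold moved by over 1.5 times when a library was left out. The farthest were Foxd1 over Foxd2, from -4.34 to -3.85 without library 3, and Foxo1 over Foxo6, from 4.59 to 5.02 without library 4.

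Detected members numbered 25, with 29 at a minimum of 1, 18 at a minimum of 50, and 23 to 25 when a library was left out. After median-of-ratios rescaling 24 passed, since Foxd1 lies at the threshold. No member varied beyond the trend, except Foxn4, which was the 1 member called with no filter on low values (1 of 33) and without library 4 (1 of 25). The range over the libraries left out was 0 to 1. The cause was not tested.

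No paired analysis was possible because the libraries form 1 group and share no replicate numbers with another. Both genes of a pair come from the same libraries, but flipping signs within 4 libraries cannot give a p below 0.125. Depth behind values near 6 to 9 is unknown, levels rest on annotated lengths, and the SDs of Foxf2, Foxq1 and Foxn3 are below the square root of their means.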
